A study of Mus musculus with 9 samples.

Results

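Genes of the BCL2 family decide whether a blood progenitor keeps its mitochondria intact or dies, and 10 of them, of 30142 named genes on the array, are described here in LSK cells of Abi1 knockout and wild-type mice. They were taken by symbol from the array's probe annotation, and each had 1 probeset with a single symbol. The survival members are Bcl2, Bcl2l1 and Mcl1. The death members are the pore-forming effector Bak1 and 6 BH3-only genes, Bid, Bad, Bcl2l11, Bbc3, Pmaip1 and Bmf. LSK cells are bone marrow cells without markers of mature lineages that carry Sca-1 and c-Kit, the compartment of the blood stem cells and earliest progenitors.

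The 4 KO mice had the genotype Abi1(-/-);Tg (Mx1-cre(+)) and the 5 WT mice Abi1(fl/fl);Tg (Mx1-cre(-)), and RNA of each mouse was hybridised to 1 whole-transcript array. Mice of either group were given 3 injections of poly(I:C), a double-stranded RNA mimic that induces interferon, at 8 to 9 weeks of age, and marrow was taken at 12 to 14 weeks. The Mx1 promoter answers to interferon in many cell types, so the deletion is not limited to blood cells. Cre was carried by the KO mice alone, so Cre and the deletion cannot be told apart. The question was which transcripts change in early progenitors when Abi1, an adaptor of the actin-regulating WAVE complex, is lost.

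In the family, survival proteins bind and restrain the effectors BAX and BAK in the outer mitochondrial membrane. BH3-only proteins are the stress sensors: they occupy the survival proteins or activate the effectors directly, and the freed effectors open pores that release cytochrome c and start the caspase cascade. In mice, Mcl1 is needed for the survival of haematopoietic stem cells. Much of the regulation acts on the proteins, by phosphorylation, cleavage or turnover, and is not visible in RNA.

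The arrays first need a word on their quality. Abi1 was at 5.82 ± 0.22 log2 signal in the KO arrays (SD, n = 4) and 11.55 ± 0.064 in the WT arrays (SD, n = 5), so the labels matched the targeted gene in every array. The median correlation of an array with all others was lowest for KO replicate 1 (0.986) and next for WT replicate 5 (0.989), and 0.993 to 0.996 elsewhere. KO replicate 1 also had the highest median signal over probesets other than controls, 5.33 against 5.08 to 5.15 elsewhere. Orders of arrays given below are of deposited signals, not adjusted for this, unless stated. All 9 measured of 10 stem and progenitor markers lay above background (Ly6a, the Sca-1 gene, was not analysed here). Of markers of other blood cells, Cd3e, Cd8a, Ncr1, Ms4a1 and Slc4a1 had means below it, while others of the same lists had means above it: Cd3g and Nkg7 of T and NK cells, Cd79a, Cd79b and Ebf1 of B cells, and Klf1, Car1 and Epor of erythroid cells. All measured markers of granulocyte-monocyte progenitors (5), mast cells and basophils (5), megakaryocytes and platelets (4) and plasma cells (4) had means above it. So did 6 of 9 mature neutrophil and 4 of 5 monocyte and macrophage markers. Background was taken per array as the level under which 95% of 1717 olfactory or vomeronasal receptor genes lie, 5.29 to 5.64. All values are deposited log2 signals, the log base being read from their range, and signals of different probesets are not set against each other, since each probeset has its own affinity. In sorted populations, a gene that is lower in each cell cannot be told apart from fewer cells that express it.

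The promoter sequences of 5 members on which the results turn are shown first. Mcl1 is the survival gene that varied most between mice, and Bak1 the death gene whose groups did not overlap in deposited signal. Bid and Bbc3 are BH3-only genes with higher KO means, and Bcl2l11 is the death gene that varied most between mice. Each sequence is the 250 bases before an annotated start in the RefSeq annotation of GRCm38.p6, written 5′ to 3′ on the strand of the gene. For Bbc3 and Bcl2l11 it is the window listed first for the gene. Capitals mark matches, on either strand, to any of 8 motifs: the GC box GGGCGG, the CCAAT box CCAAT, the TATA box TATAAA, the E-box CACGTG, the ETS core CCGGAAG, the STAT palindrome TTCNNNGAA, the FOXO core GTAAACA and the p53 half-site.
Mcl1, chr3:95658471-95658720, plus strand: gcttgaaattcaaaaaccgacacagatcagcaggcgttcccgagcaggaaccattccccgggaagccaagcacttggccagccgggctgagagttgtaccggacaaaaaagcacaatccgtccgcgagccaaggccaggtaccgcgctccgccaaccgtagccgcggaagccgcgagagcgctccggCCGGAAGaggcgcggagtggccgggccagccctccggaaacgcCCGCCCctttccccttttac
Bak1, chr17:27028628-27028877, minus strand: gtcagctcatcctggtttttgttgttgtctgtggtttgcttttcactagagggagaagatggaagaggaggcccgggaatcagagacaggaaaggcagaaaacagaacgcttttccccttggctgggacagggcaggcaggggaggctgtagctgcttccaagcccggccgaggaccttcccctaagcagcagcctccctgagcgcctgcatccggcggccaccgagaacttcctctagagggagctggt
Bid, chr6:120916825-120917074, minus strand: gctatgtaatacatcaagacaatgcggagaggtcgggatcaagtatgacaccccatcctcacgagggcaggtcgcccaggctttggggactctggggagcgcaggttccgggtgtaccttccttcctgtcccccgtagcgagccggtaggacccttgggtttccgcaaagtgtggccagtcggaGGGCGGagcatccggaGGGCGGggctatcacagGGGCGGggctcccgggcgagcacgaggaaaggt
Bbc3, chr7:16309333-16309582, plus strand: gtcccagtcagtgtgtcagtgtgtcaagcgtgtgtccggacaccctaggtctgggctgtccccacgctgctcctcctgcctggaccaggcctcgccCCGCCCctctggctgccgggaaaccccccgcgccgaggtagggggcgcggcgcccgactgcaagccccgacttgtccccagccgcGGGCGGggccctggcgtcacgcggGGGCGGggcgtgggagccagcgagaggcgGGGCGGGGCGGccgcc
Bcl2l11, chr2:128125788-128126037, plus strand: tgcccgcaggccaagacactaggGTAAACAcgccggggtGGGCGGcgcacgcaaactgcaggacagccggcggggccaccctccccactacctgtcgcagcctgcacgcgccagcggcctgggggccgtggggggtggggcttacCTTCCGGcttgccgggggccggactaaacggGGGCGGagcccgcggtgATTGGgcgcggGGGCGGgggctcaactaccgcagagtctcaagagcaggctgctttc

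The windows differ in their letters. That of Bbc3 is 76.4% G or C and holds 5 GC boxes, of which the last 2 share 1 base; that of Bid holds 3, and that of Bak1, at 58.4% G or C, holds none of the 8 motifs. Mcl1 has 1 GC box and 1 ETS core. Bcl2l11 has 3 GC boxes, 1 FOXO core, 1 ETS core and 1 CCAAT box. Over the 17 windows of 9 members (alternative starts of a gene included, some of which overlap), 9 held a GC box, against 32.7% of 32851 windows of all genes, and 6 a CCAAT box, against 33.8%. FOXO cores were found in 2 windows, of Bbc3 and Bcl2l11 (3.17% of all windows), an ETS core in 2 (6.91%), an E-box in 1 (6.02%) and a p53 half-site in 1, of Bmf (7.13%). No member window held a TATA box or a STAT palindrome, which 12.4% and 7.02% of all windows hold. A match of letters is a description of the sequence and was not tested as a binding site.

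RNA of survival and of death genes was detected side by side in LSK cells, 9 of the 10 members lying above background in all 9 arrays. Each of the 3 survival genes lay above background in 9 of 9 arrays, Bcl2 by 6.33 to 6.70 on the log2 scale, Mcl1 by 5.88 to 6.62 and Bcl2l1 by 2.15 to 2.70. Of the death genes, Bcl2l11 exceeded background by 2.84 to 3.69, Bid by 2.93 to 3.44, Bak1 by 2.64 to 3.18, Bbc3 by 1.29 to 1.82 and Bad by 0.68 to 1.10. Pmaip1 was close to background, by 0.21 to 0.85 above it. Bmf, a BH3-only gene known for its response to cytoskeletal and matrix stress, had a mean below background and exceeded it in 1 array.

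None of the 10 members passed the test between KO and WT. In limma, 0 of 10 had an adjusted p under 0.05, where 1 of 30142 genes passed (0.00332%), namely Abi1. At an unadjusted limma p under 0.05, 3 of 10 members had higher KO means, all of them BH3-only genes, against 3.82% of all genes, and 0 had lower ones, against 1.19%. Every KO array lay above every WT array for 1 member, Bak1, as for 0.680% of all genes, and every KO array lay below for 0 members, as for 0.176%. Measured from each array's own background, the groups overlapped for Bak1 too. The exact two-sided permutation test over all splits of the arrays gave an unadjusted p under 0.05 for Bak1, Bid, Bbc3 and Pmaip1. It gave 0.119 for Bad, 0.413 for Bcl2l11, 0.444 for Bmf, 0.548 for Bcl2l1 and 0.952 for Mcl1. For Bcl2, too, its p was above 0.05. The family was picked with results of these data known, so these counts and the p of single members are no independent evidence.

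The directions differed by role. All 7 death members had higher means in KO, with differences of 0.028 to 0.31 and a median of 0.21, whereas 1 of the 3 survival members did, with a median of -0.013. Over all genes 63.9% had higher KO means, with a median difference of 0.034, and these became 53.5% and 0.0079 with quantile normalization and 43.9% and -0.014 when arrays were centred on their medians. The 6 death members above background kept their higher KO means under either scaling, and Bmf did not.

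**Figure D1:**
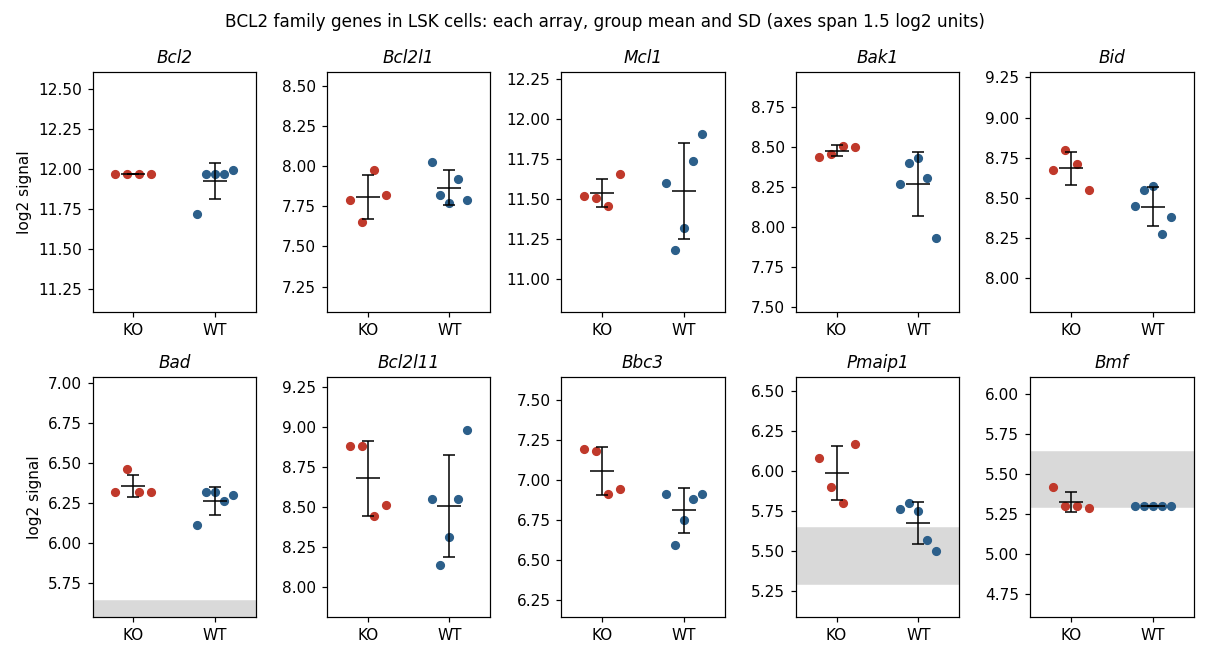
Log2 signal of each of the 10 genes in 4 KO (red) and 5 WT (blue) arrays, with group mean and SD as black bars. Every panel spans 1.5 log2 units, and the grey band is the range of background over the arrays, 5.29 to 5.64. Bak1 is the gene whose groups do not overlap in deposited signal, and Bmf lies in the band.

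Among the survival genes, Mcl1, which encodes a short-lived guardian that holds BAK, gave log2 signals of 11.52, 11.51, 11.46 and 11.66 in KO replicates 1 to 4, against 11.60, 11.18, 11.32, 11.74 and 11.91 in WT replicates 1 to 5. The KO arrays all lay inside the WT range. Means were 11.54 ± 0.086 in the KO arrays (SD, n = 4) and 11.55 ± 0.30 in the WT arrays (SD, n = 5), and the difference of -0.013 had an interval at the 95% level from -0.34 to 0.32 (limma adjusted p = 0.982). The low WT values belonged to WT replicates 2 and 3. Without these arrays, a choice made after seeing the data, the difference was -0.21. Its spread within groups, 0.23, exceeded that of 59.6% of genes above background.

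Bcl2, the founding survival gene of the family, read 11.97 in all 4 KO arrays, against 11.72, 11.97, 11.97, 11.97 and 11.99 in WT replicates 1 to 5. The same value thus stood in 7 of the 9 arrays, as it does for 1.83% of genes above background, and WT replicate 1 was the low array. The limma interval of the difference of 0.046, from -0.089 to 0.18, rests on these equal values. Bcl2l1, which encodes BCL-XL, the survival protein of red cell precursors and platelets, gave 7.79, 7.65, 7.98 and 7.82 in KO and 8.03, 7.82, 7.77, 7.92 and 7.79 in WT. KO replicate 2 lay below all WT arrays and WT replicate 1 above all KO arrays, and the groups overlapped between 7.77 and 7.98. The difference was -0.056 (SE 0.078, interval -0.24 to 0.12, limma adjusted p = 0.826). WT replicate 5 had the lowest erythroid marker signals (Car1 was at 6.38 there and at 15.40 to 16.99 in the other arrays), and Bcl2l1 was at 7.79 in it, inside the range of the rest.

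Bak1, the effector that forms pores in the outer mitochondrial membrane, gave 8.44, 8.46, 8.51 and 8.50 in KO replicates 1 to 4, against 8.27, 8.40, 8.43, 8.31 and 7.93 in WT replicates 1 to 5. The lowest KO array stood just above the highest WT array, and the low WT mean owed most to WT replicate 5. Above each array's own background, KO arrays ran from 2.80 to 3.18 and WT arrays from 2.64 to 3.10, so the groups overlapped there. Means were 8.48 ± 0.033 in the KO arrays (SD, n = 4) and 8.27 ± 0.20 in the WT arrays (SD, n = 5). The difference of 0.21 (SE 0.097) had an interval from -0.013 to 0.43 and a limma adjusted p of 0.786, and the exact two-sided permutation test over all splits of the arrays gave an unadjusted p of 0.0397. It was 0.13 without WT replicate 5. The other effector gene, Bax, was not analysed here.

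Bid encodes a BH3-only protein that caspase-8 cleaves, which links death receptors to the mitochondrion. Its signals were 8.67, 8.80, 8.71 and 8.55 in KO and 8.45, 8.55, 8.57, 8.27 and 8.38 in WT. In deposited signal, KO replicates 1 to 3 lay above all WT arrays, and KO replicate 4 lay among them. Above each array's own background, KO replicates 1 (3.03) and 4 (3.23) both lay inside the WT range, 2.93 to 3.25. The difference was 0.24 (SE 0.076, interval 0.066 to 0.41), with a limma adjusted p of 0.786 and an unadjusted exact permutation p of 0.0476. It stayed between 0.19 and 0.32 in every alternative run, including those without the doubtful arrays. Signal above each array's own background was not among these runs.

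Bbc3 encodes PUMA, a potent BH3-only protein and a classic p53 target. It gave 7.19, 7.18, 6.91 and 6.94 in KO and 6.91, 6.59, 6.75, 6.88 and 6.91 in WT. In deposited signal, KO replicates 1 and 2 formed the top and KO replicate 3 equalled the highest WT arrays. Above each array's own background, only KO replicate 2 (1.82) exceeded the WT range of 1.29 to 1.62. KO replicate 1, at 1.55, was the lowest KO array there. The difference was 0.25 (SE 0.092, interval 0.037 to 0.46, limma adjusted p = 0.786, unadjusted exact permutation p = 0.0238). It was 0.12 without KO replicates 1 and 2 and 0.16 without WT replicates 2 and 3, choices made after seeing the data.

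Pmaip1 encodes NOXA, a BH3-only protein that binds MCL1 and promotes its degradation. It gave 6.08, 5.90, 5.80 and 6.17 in KO and 5.76, 5.80, 5.75, 5.57 and 5.50 in WT. The highest WT array equalled the lowest KO array, and the other 3 KO arrays lay above. At 0.31 (SE 0.095, interval 0.095 to 0.53) this was the greatest difference among the 10 members, a 1.24-fold higher KO signal if the values are log2. Its limma adjusted p was 0.786 and its unadjusted exact permutation p 0.0159, where the smallest that this design allows is 0.00794. The signal is dim. Above each array's own background it was 0.44, 0.54, 0.45 and 0.85 in KO, against 0.21 to 0.50 in WT. KO replicates 1 and 3 thus lay inside the WT range on that measure. KO replicate 1, the array with the highest background, had a Pmaip1 signal below that of KO replicate 4 alone, and the difference was 0.28 without it.

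Bcl2l11 encodes BIM, the BH3-only protein that rises when growth factors are withdrawn. It gave 8.88, 8.88, 8.44 and 8.51 in KO, against 8.55, 8.14, 8.31, 8.55 and 8.98 in WT. The KO arrays all lay within the WT range. Its spread within groups, 0.28, exceeded that of 71.1% of genes above background, and the difference of 0.17 had an interval from -0.23 to 0.58 (limma adjusted p = 0.789). Its direction did not hold: it was -0.016 without WT replicates 2 and 3 and -0.031 without KO replicates 1 and 2.

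The last members had the smallest differences among the death genes. Bad, whose protein is kept inactive by phosphorylation through survival kinases, gave 6.32, 6.46, 6.32 and 6.32 in KO and 6.11, 6.32, 6.32, 6.26 and 6.30 in WT. A value of 6.32 thus recurred in 5 arrays, and the difference was 0.093 (SE 0.056, interval -0.035 to 0.22, limma adjusted p = 0.786). Bmf gave 5.42, 5.30, 5.30 and 5.29 in KO and 5.30 in all 5 WT arrays, a difference of 0.028 at background, and it was -0.0033 without KO replicate 1.

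**Figure D2:**
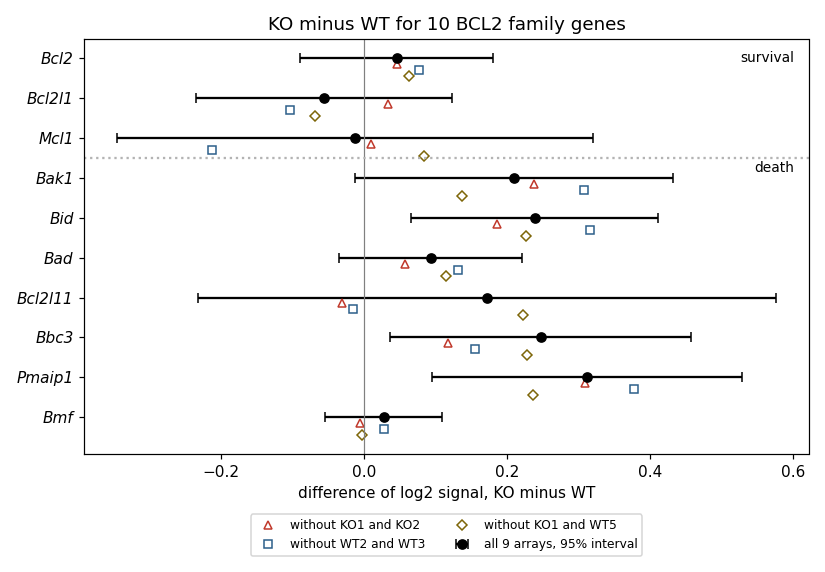
Difference of log2 signal, KO minus WT, for the 10 genes, survival genes above the dotted line. Black points and bars are the limma estimate from all 9 arrays with its 95% interval, and open symbols are estimates with pairs of arrays left out. Bcl2l11 crosses 0 without KO replicates 1 and 2 and without WT replicates 2 and 3, while Bid, Bbc3, Pmaip1 and Bak1 stay above 0.

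The balance of survival and death members was followed as each gene's deviation from its own mean over the 9 arrays, averaged over the 3 survival genes and over the 6 death genes above background. The survival mean was -0.017, -0.067, 0.027 and 0.040 in KO replicates 1 to 4, against 0.0067, -0.12, -0.090, 0.10 and 0.12 in WT replicates 1 to 5. KO arrays lay inside the WT range. The death mean was 0.18, 0.19, 0.027 and 0.077 in KO, against -0.080, -0.12, -0.066, -0.11 and -0.088 in WT. Every KO array was above every WT array in deposited signal, and KO replicates 1 and 2 were the highest. The rank of KO replicate 1 is not adjusted for its higher median signal, 5.33 against 5.08 to 5.15 elsewhere. Above its own background, it was the lowest KO array for Bak1, Bid, Bad, Bbc3 and Pmaip1, though not for Bcl2l11. KO replicate 1 then lay below all WT arrays for Bad (0.68 against 0.78 to 1.02). For Bak1, Bid, Bcl2l11, Bbc3 and Pmaip1 it lay inside the WT range. On that measure its death mean was below that of every WT array, so the groups were not apart there.

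Survival minus death was therefore -0.19, -0.26, -0.00019 and -0.037 in KO, against 0.086, 0.0015, -0.024, 0.21 and 0.21 in WT. The groups overlapped, since WT replicate 3 lay below KO replicate 3. The means were -0.12 ± 0.12 in the KO arrays (SD, n = 4) and 0.097 ± 0.11 in the WT arrays (SD, n = 5), a difference of -0.22, of which the death genes gave 0.21 and the survival genes -0.0075. No p is given for this score, since its genes were chosen with results known. It was -0.12 without KO replicates 1 and 2, -0.29 without WT replicates 2 and 3 and -0.17 without KO replicate 1 and WT replicate 5. Each of these choices was made after seeing the data.

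**Figure D3:**
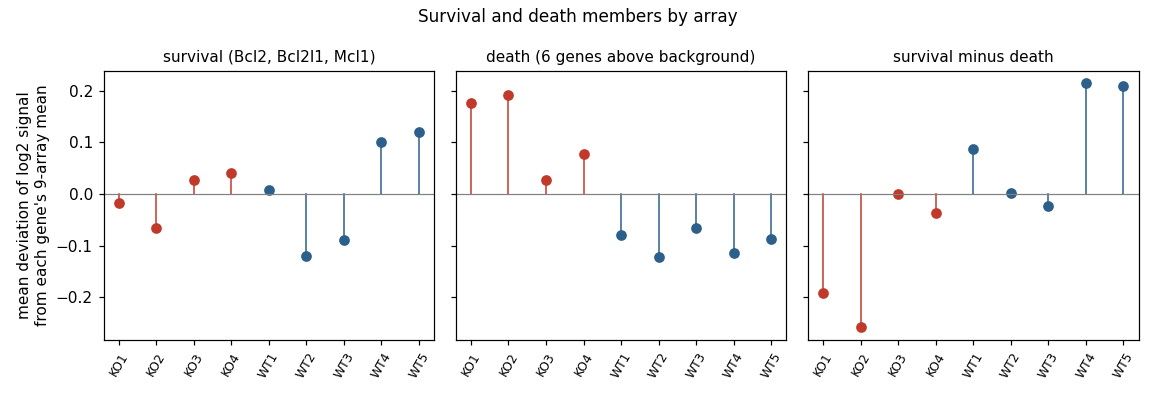
Mean deviation of log2 signal from each gene's mean over 9 arrays, per array (KO red, WT blue), for the 3 survival genes, for the 6 death genes above background, and for their difference. Death genes are above 0 in the 4 KO arrays and below 0 in the 5 WT arrays, and survival genes show no such order. Signals are as deposited, not adjusted for the higher median of KO replicate 1. Above its own background, KO replicate 1 had a lower death mean than every WT array.

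Some partners are known to bind each other, and their deviations were set side by side within arrays. For Mcl1 minus Pmaip1 the means were -0.18 ± 0.10 in the KO arrays (SD, n = 4) and 0.14 ± 0.42 in the WT arrays (SD, n = 5), with WT arrays from -0.35 to 0.68 on either side of all KO arrays. For Mcl1 minus Bak1 they were -0.12 ± 0.087 in KO and 0.099 ± 0.48 in WT, and again the WT range, -0.40 to 0.80, held all KO arrays. For Bcl2l1 minus Bad they were -0.083 ± 0.20 in KO and 0.066 ± 0.19 in WT, and for Bcl2l1 minus Bak1 -0.15 ± 0.12 in KO and 0.12 ± 0.22 in WT. Each pair leaned towards the death partner in KO by less than the SD of at least 1 group, except Bcl2l1 and Bak1, whose difference of -0.27 exceeded both SDs while their ranges overlapped (-0.29 to -0.010 in KO, -0.14 to 0.38 in WT).

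Some of the arrays that stood out for genes of other cell states also stood out for members, and others did not. Immediate early genes (13 of 14 measured, all above background), which respond within minutes to a stimulus or to handling, had mean deviations of 0.20 to 0.70 in KO, against -0.957 and -1.001 for WT replicates 2 and 3 and -0.059 to 0.36 for the remaining WT arrays. WT replicates 2 and 3 were also the lowest arrays for Mcl1, Bcl2l11 and Bbc3. The highest array for Mcl1 (11.91) and Bcl2l11 (8.98) was WT replicate 5, whose immediate early mean was -0.059. Mature neutrophil markers (9 of 9 measured, 6 above background; Mmp8, Mmp9 and Retnlg below it) had mean deviations of 2.53, 2.17, -0.81 and -0.32 for KO replicates 1 to 4, whereas the WT arrays ran from -1.37 to 0.36. S100a8, a gene of neutrophil calprotectin, stood at 12.58 in KO replicate 1 and at 10.87 in KO replicate 2. The same arrays were the highest for S100a9, Ngp, Ltf and Camp. Cxcr2, the remaining marker above background, did not share this order. It read 8.57 in KO replicate 1 and 8.50 in KO replicate 2, below KO replicate 3 (8.61), KO replicate 4 (8.75) and WT replicate 3 (8.63). Pmaip1 was highest in KO replicate 4 (6.17), whose neutrophil mean was -0.32. In deposited signals, KO replicates 1 and 2 were the highest KO arrays for Bcl2l11 and Bbc3 and held the 2 highest death means. Without them the death mean differed by 0.15 in place of 0.21. Bbc3 then differed by 0.12 in place of 0.25, Bcl2l11 by -0.031 in place of 0.17 and Bad by 0.058 in place of 0.093. Bid differed by 0.19 in place of 0.24, Bak1 by 0.24 in place of 0.21, and Pmaip1 by 0.31 either way. In deposited signals, the mean deviations of 2 lymphoid marker lists did not overlap between the groups, nor did the death mean. The 3 B cell markers above background (of 4 measured) had mean deviations of 0.088 to 0.38 in KO and -0.26 to -0.012 in WT, with Cd79b at 8.03 to 8.62 in KO and 7.57 to 7.94 in WT. The groups overlapped for Cd79a and met at 5.54 for Ebf1, and the defining marker Ms4a1 lay below background in every array. The 2 T and NK cell markers above background (of 5 measured) had 0.13 to 0.25 in KO and -0.24 to -0.046 in WT, with Nkg7 at 14.43 to 14.58 in KO and 13.74 to 14.27 in WT. The groups overlapped for Cd3g, and Cd3e, Cd8a and Ncr1 lay below background in every array. The other lists overlapped between the groups. The 5 granulocyte-monocyte progenitor markers, 5 of them with higher KO means, had 0.040 to 0.73 in KO and -0.85 to 0.42 in WT, and the 5 mast cell and basophil markers, also all higher, 0.15 to 0.45 in KO and -0.94 to 0.31 in WT. The 4 monocyte and macrophage markers above background had -0.11 to 0.58 in KO and -0.78 to 0.49 in WT, and the 4 megakaryocyte and platelet markers 0.15 to 0.74 in KO and -1.88 to 0.46 in WT. The 3 erythroid markers above background had -0.61 to 1.15 in KO and -4.47 to 1.38 in WT, and the 4 plasma cell markers -0.38 to 0.31 in KO and -0.42 to 0.96 in WT. Of the 9 stem and progenitor markers, 7 had lower and 2 higher means in KO, with -0.25 to 0.039 in KO and -0.16 to 0.24 in WT. Beyond these values, the part of any of these gene sets in the differences was not tested.

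**Figure D4:**
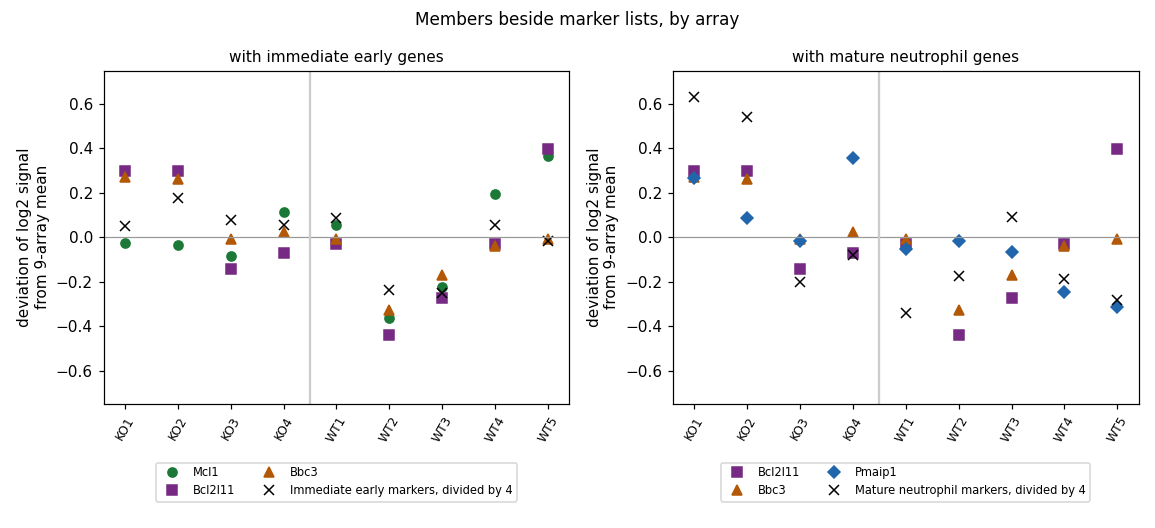
Deviation of log2 signal from the 9-array mean in each array for Mcl1, Bcl2l11 and Bbc3 beside the mean deviation of immediate early genes (left), and for Bcl2l11, Bbc3 and Pmaip1 beside that of mature neutrophil markers (right). Marker means (crosses) are divided by 4 to share the axis. WT replicates 2 and 3 are low for all 4 items on the left, and KO replicates 1 and 2 carry the high neutrophil means on the right.

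The genes that tracked each member most closely over the 9 arrays, among 16001 candidates above background with some spread within groups, were named by Pearson's r. For Mcl1 this was Arid5a (r = 0.949), for Bcl2l11 Map3k8 (0.970), for Bbc3 Errfi1 (0.984), for Bak1 Clca3a1 (0.984), for Bid Gm12447 (0.988), for Pmaip1 Mir8115 (0.966), for Bcl2l1 Mfsd8 (0.938) and for Bad Usp3 (0.962). For Bcl2 and Bmf, where 7 arrays hold 1 value, Hexim2 (0.997) and B3gnt3 (0.997) rest on the remaining arrays. Each is the highest of many correlations over few arrays and is a description alone.

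Outside the 10 genes, 13 of 15 further family members were measured, and 10 lay above background. Of these 10, 5 had higher and 5 lower means in KO, with 0 under an unadjusted limma p of 0.05 and a median difference over the 13 of 0.015. Bnip3l, a mitophagy receptor that clears mitochondria from maturing red cells, differed by 0.23 (SE 0.12) and its relative Bnip3 by 0.094. The effector relative Bok differed by -0.11, the survival gene Bcl2l2 by -0.046, the BH3-only gene Hrk by -0.028, Bcl2l12 by -0.092, Bcl2l13 by 0.040 and Bcl2l14 by -0.00050. Bcl2a1a and Bcl2a1d, near-identical copies of a survival gene of myeloid cells whose probes may share RNA, differed by 0.094 and 0.015. They ran from 5.67 to 6.58 and from 5.67 to 6.13 in KO, against 5.44 to 6.61 and 5.39 to 6.22 in WT. 

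Downstream of the mitochondrion, 9 of 11 measured apoptosome and caspase genes had lower and 2 higher means in KO (median -0.064), and 0 had an unadjusted limma p under 0.05. Cytochrome c, encoded by Cycs, differed by 0.25 (SE 0.14), with WT replicate 5 at 14.51 and all other arrays at 15.05 to 15.34. The mitochondrial flavoprotein gene Aifm1 differed by -0.21. Of 6 caspase inhibitor genes, 4 had lower and 2 higher means, with Birc2 at -0.37 (SE 0.16) and Birc6 at -0.17. Of 7 measured death receptor genes, 5 had lower and 2 higher means, with Tnfrsf1a, a TNF receptor gene, at 0.25 and Cflar, an inhibitor of caspase-8 activation, at -0.26. The 3 outer membrane channel genes had lower means, with Vdac2 at -0.14 and Vdac1 at -0.048. KO replicate 1, which stood apart, had the lowest array mean of the 11 apoptosome and caspase genes (-0.27), the caspase inhibitors (-0.23) and the death receptor genes (-0.18).

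Upstream of the family, 15 of 17 transcriptional regulators were measured, with 10 higher and 5 lower means in KO (median 0.061). No regulator passed over all genes, and 6 had an unadjusted limma p under 0.05, 5 with higher and 1 with lower KO means, where 3.82% and 1.19% of all genes did. This list, too, was chosen with earlier results of these data known. Those with higher means were Atf4 (0.31) and Ddit3 (0.81), transcription factors of the integrated stress response, of which the protein of Ddit3 can induce Bcl2l11, and Tsc22d3 (0.43), Myc (0.20) and the NF-kappaB subunit gene Rela (0.52). Rela gave 11.19, 11.84, 11.02 and 11.05 in KO and 10.93, 10.60, 10.60, 10.74 and 10.93 in WT, groups that did not overlap. Hlf, a stem cell transcription factor, had the lower mean at -0.65. Its WT replicate 5 was at 11.62, against 9.80 to 10.64 in KO and 10.63 to 10.96 in the other WT arrays.

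Genes that tune the proteins included none that passed the test. Of 5 measured turnover genes of MCL1 and BIM, 3 had lower and 2 higher means, with Usp9x, which encodes a deubiquitinase that stabilises MCL1, at -0.15 and the kinase gene Gsk3b at -0.081. Of 7 measured kinase and BAD-binding genes, 6 had higher and 1 lower means, with the survival kinase gene Pim1 at 0.35 (SE 0.22) and the 14-3-3 gene Ywhaz at 0.054. Of 5 measured survival receptor genes, 3 had higher and 2 lower means, and Il7r, the interleukin 7 receptor gene of lymphoid cells, differed by 0.34 with an unadjusted limma p of 0.0176. All the genes named here outside the family had limma adjusted p of 0.786 or above.

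**Figure D5:**
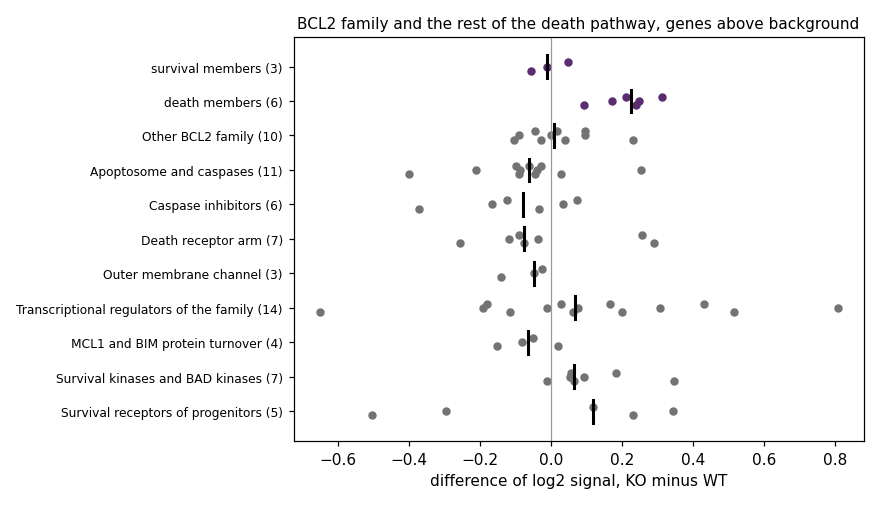
Difference of log2 signal, KO minus WT, for genes above background in each list (points; number of genes in brackets), with the list median as a black bar. The 6 death members lie between 0.093 and 0.31, and the medians of the 9 other lists, from -0.080 to 0.12, lie on either side of 0.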

How the data were processed

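Whole-transcript arrays of LSK cells from 4 KO and 5 WT mice, 1 per mouse, were amplified from 5 ng of total RNA, per the labels' protocols. The deposited table holds 72688 probesets as log2 signals summarised by the authors. Partek 6.6 is named in the submitters' processing notes, and for background correction, normalization and log base no statement was found in the labels or headers, so the log2 scale is read from the range of 1.84 to 19.45. Controls (6732 probesets) were set aside. Of the rest, 30604 carried 1 symbol, 827 symbols were updated through Entrez identifiers, and 30142 genes were each represented by their brightest probeset. The difference between KO and WT was fitted in R 4.3.3 with limma 3.58.1 over all genes (lmFit and eBayes without trend, Benjamini-Hochberg, threshold 0.05). Exact two-sided permutation over all splits served for single members. Precision is limited by how few arrays there are.

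All 10 members are named, and so are genes of the pathway lists with an unadjusted p under 0.05 (otherwise the 2 smallest) and further family members above background. Members, lists and the immediate early list (added last) were chosen with earlier results of these data known. Alternatives were other normalizations, a filter on dim genes, probeset means, a variance trend, array weights, a replicate block and leaving out arrays. Promoter windows of 9 members came from the RefSeq table of GRCm38.p6, and none of Pmaip1 was used here.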

Additional observations from a re-analysis of the deposited data

Results flagged for a closer look

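In 10 of the 82 groups of 4 or 5 arrays tested for the 41 results named in the report, 1 array stood far from its group, where chance gives about 1 in 20. In several of these groups the remaining arrays hold 1 and the same value. Among the members, Bad read 6.46 in KO replicate 2, with 6.32 in the remaining KO arrays, and 6.11 in WT replicate 1, with 6.26 to 6.32 in the remaining WT arrays. Bmf read 5.42 in KO replicate 1, with 5.29 to 5.30 in the remaining KO arrays. Bcl2 read 11.72 in WT replicate 1, with 11.97 to 11.99 in the remaining WT arrays.

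Among the further genes, KO replicate 1 had Bnip3 at 7.46 (remaining KO arrays 7.17 to 7.21), Usp9x at 10.43 (10.82 to 10.84) and Gsk3b at 11.13 (11.27). Bok read 6.65 in KO replicate 4, with 6.83 in the remaining KO arrays. Hrk read 6.27 in WT replicate 4, with 6.08 in the remaining WT arrays. Cycs read 14.51 in WT replicate 5, with 15.05 to 15.22 in the remaining WT arrays.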

How the results depend on the processing

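The call of 0 members held in all 19 alternatives, with limma adjusted p of the members from 0.665 to 1. Over all genes, 1 gene was called in 18 of them, and array weights called 2, Abi1 and Igll1 (limma adjusted p = 0.0157), whose mean lies below background. Bak1, Bid, Bad, Bbc3 and Pmaip1 kept their direction in all 19. Signal above each array's own background was not among the 19. On that measure Bad ran from 0.68 to 1.10 in KO, around the WT range of 0.78 to 1.02. The direction turned in at least 1 alternative for Bcl2, Bcl2l1, Mcl1, Bmf and Bcl2l11, of which Bcl2l11 has a difference of 0.17 over all arrays, and the cause was not tested. Quantile normalization gave Bmf -0.015, median centring gave Bcl2 -0.0010 and Bmf -0.020, and array weights gave Mcl1 0.044 and Bmf -0.0021. With 1 array left out at a time, Mcl1 ran from -0.11 to 0.078, Bcl2 from -0.0050 to 0.063 and Bmf from -0.0033 to 0.040. Without KO replicate 1 and WT replicate 5, Mcl1 was 0.083 and Bmf -0.0033. Without WT replicates 2 and 3, Bcl2l11 was -0.016. Without KO replicates 1 and 2, Bcl2l1 was 0.034, Mcl1 0.010, Bcl2l11 -0.031 and Bmf -0.0050. The survival minus death balance stayed between -0.29 and -0.12 in its 17 alternatives, where the variance trend and array weights do not apply, and was -0.19 with Bmf included. The replicate block changed no call and gave Mcl1 0.078. Deviations of KO and WT arrays of the same number correlated at -0.18, 0.15, -0.013 and 0.27 for numbers 1 to 4. Arrays of different numbers were not compared, so these values cannot decide whether same-numbered arrays share more than a number. The block sets aside WT replicate 5, which has no partner. Signal over background limits Pmaip1 and Bmf, the dimmest members.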
